A study of Homo sapiens with 4 samples.

Results

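The cytosolic ribosomal protein genes were chosen as a group with earlier results of these data known. The members of the group were set by name and annotation, as protein-coding genes of the GENCODE annotation. Their symbols are RPL or RPS with a number and its A, X or Y copies, RPLP0 to RPLP2, and RPSA. This gave 79 genes of the 34500 genes with at least 1 matched transcript. Of them, 33 encode proteins of the small (40S) subunit, 43 of the large (60S) subunit and 3 the P-stalk of the large subunit. They lie on 22 different chromosomes, 12 of them on chromosome 19. The RNA came from MCF10A, a human breast epithelial cell line that is immortal but forms no tumours. All 4 libraries are labelled as coming from cells with a stably integrated scramble shRNA (a control hairpin designed against no gene), so no culture without a hairpin stands beside them. The controls (0 h) had no TGF-β1, and the treated cells had 5 ng/ml TGF-β1 for 1.5 h, with 2 libraries in each group. The labels call the libraries biological duplicates of 1 cell line, so the p-values below measure the spread between these 4 libraries only.

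A ribosome joins a 40S subunit, which reads the mRNA, to a 60S subunit, which links amino acids, and most ribosomal proteins are present in a single copy per ribosome. Their mRNAs are among the most abundant of growing cells and typically begin with a C followed by a run of pyrimidines, the 5′ terminal oligopyrimidine (TOP) motif. Through this motif mTORC1 and the RNA-binding protein LARP1 govern the translation and stability of these mRNAs together with those of elongation factors.

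The first transcribed bases of 11 genes are shown to set the motif beside the results. The first 5 were among the genes that differed most between libraries, RPS24 and RPL3 also passed the test between libraries, and the last 4 did not pass it. Each window holds 10 bases before and 20 bases from the RefSeq start site (GRCh38.p14), 5′ to 3′ on the gene's strand. Capitals mark the unbroken run of C and T from the first transcribed base, where that base is C and at least 4 further C or T bases follow.
RPL12: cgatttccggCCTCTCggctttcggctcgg
RPS9: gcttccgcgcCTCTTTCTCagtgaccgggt
RPL41: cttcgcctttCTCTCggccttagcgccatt
RPS6: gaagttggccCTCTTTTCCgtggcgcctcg
RPLP0: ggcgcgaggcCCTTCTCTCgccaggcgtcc
RPS24: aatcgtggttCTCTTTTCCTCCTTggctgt
RPL3: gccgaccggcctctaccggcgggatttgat
RPL38: aagtctcgttCTTTTTCgtccttttccccg
RPS21: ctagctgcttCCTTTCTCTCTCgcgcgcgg
RPS23: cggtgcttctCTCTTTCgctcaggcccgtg
RPS16: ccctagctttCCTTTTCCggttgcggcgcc
The windows of RPL12, RPL41 and RPLP0 lie at chr9:127451387-127451416, chr12:56116623-56116652 and chr12:120201092-120201121, and that of RPS16 at chr19:39435930-39435959. RPL3, whose run is 4 bases long, has no such start in its window. RPL38, RPS21, RPS23 and RPS16, which did not pass the test between libraries, have the motif as plainly as RPL12.

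Windows could be read for 64 of the 79 genes. In 47 of these 64 genes (73.4%) a window began with a C and at least 4 further pyrimidines, against 1357 of 27241 other genes (4.98%). Over all windows read on the gene's strand, 4.07% of 35116 had such a start, and 59.5% of the 79 windows of ribosomal protein genes. The runs of the 47 starts were 5 to 19 bases long, with a median of 8, and the longest belongs to RPL39, whose protein lies in the peptide exit tunnel. Its window reads as follows.
RPL39: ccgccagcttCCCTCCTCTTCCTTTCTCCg
Genes for which no window was found include RPL5, RPL7, RPL8, RPL23, RPL23A, RPL30, RPL37, RPS2, RPS15A and RPS20.

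Total estimated counts ran from 35737659 to 40792300 per library. Control and treated libraries numbered 2 differed widely from the libraries numbered 1. Between the 2 numbers, 5524 of 14774 tested genes (37.4%) passed edgeR's quasi-likelihood test (Benjamini-Hochberg adjusted p under 0.05). PHF8, named in the labels' protocol and encoding a demethylase of histones, stood at 20.2 and 3.96 CPM in control replicates 1 and 2, and at 19.8 and 3.96 in TGF-β1 replicates 1 and 2. PHF8 was thus 5.10-fold lower in the libraries numbered 2 (adjusted p = 0.000792 in edgeR), a difference that the shared scramble label does not account for. Every comparison between the numbers below rests on these libraries. CPM is a gene's share of all gene counts of its library, here without TMM scaling and not corrected for length. The labels do not say what a replicate number stands for. The fragment length implied by the deposited effective lengths was 170.7, 171.2 and 172.3 bases in control 1, control 2 and TGF-β1 1, and 187.8 bases in TGF-β1 2. Basal epithelial markers were present, with KRT5 at 2023 to 2385 TPM (a level corrected for transcript length and library size), and PTPRC, PDGFRB and PECAM1 of blood, fibroblast and endothelial cells were below 1 TPM in each library.

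As a group, ribosomal protein mRNAs were among the most abundant messages of these cells. The median over the 79 genes of the mean level was 2839 TPM, and the middle 50% ran from 2039 to 3701 TPM. Of the 138 genes with a mean above 1000 TPM, 71 belonged to this group. The highest were RPL41, the smallest ribosomal protein, at 7369 TPM, RPS27, a zinc-binding 40S protein, at 7211 TPM, RPL4 at 6182 TPM, RPL37A at 5933 TPM and RPS2 at 4933 TPM. The lowest that passed the filter on low counts were RPS9 at 54.1 TPM, RPS16 at 220.9 TPM and RPL22 at 562 TPM. The low values of RPS9 leave out copies that share its reads, given further on. The Y-linked copies of RPS4X stood at the bottom, RPS4Y1 at a mean of 0.203 TPM and RPS4Y2 with no count, and neither was tested. RPS4X itself, on the X chromosome, was at 1660 TPM, so the comparisons below cover 77 genes.

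The first comparison asks whether these mRNAs move within 1.5 h of TGF-β1. None of the 77 tested genes passed edgeR's test, and none passed with DESeq2, limma or the replicate number as a block. Together the 79 genes took 7.40% and 9.44% of gene counts in control replicates 1 and 2 and 7.36% and 9.70% in TGF-β1 replicates 1 and 2. Their 95% intervals by Wilson's method (counting error alone) were 7.39% to 7.41%, 9.43% to 9.45%, 7.36% to 7.37% and 9.69% to 9.71%. The groups overlapped, since both libraries numbered 1 were low and both numbered 2 were high. The treated share was 0.996 times the control share in replicates 1 and 1.03 times in replicates 2, and 1.01 times on the group means (exact two-sided permutation test, p = 1, smallest possible p 0.333 with 2 against 2).

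That count of 0 stood beside 0 of 14774 genes (0%) called by edgeR over all genes, so it does not set the group apart. At an unadjusted p under 0.05 in the same fit, 0 of the 77 genes stood beside 255 of all genes (1.73%). With the replicate number as a block, edgeR called 0 of the 77 genes beside 335 of 14774 genes (2.27%). DESeq2 called 0 of 78 against 90 of 19649 genes with an adjusted p (0.458%), among them the TGF-β target SMAD7, the inhibitory SMAD. SMAD7 was at 8.56 and 8.46 CPM in the controls and at 127 and 99.0 after TGF-β1, so the treated cells carried a transcript response. In a bulk library, fewer cells of a type and less RNA per cell cannot be told apart.

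The fold changes of the 77 genes with TGF-β1 lay close together. Their median log2 fold change was 0.05 (middle 50% 0.03 to 0.07), beside -0.01 (-0.09 to 0.06) for all tested genes, and their SD was 0.07 beside 0.36. Under edgeR's TMM scaling 67 of the 77 values were above 0 (87%, beside 47.7% of all genes), but this sign depended on the libraries and the scaling used. On plain shares of the library, without TMM scaling, 30 of 77 were above 0 in replicates 1 and 58 of 77 in replicates 2. The medians of these plain ratios were -0.01 in replicates 1 (all genes -0.02) and 0.04 in replicates 2 (all genes -0.05). Leaving out 1 library moved the median of edgeR's fold changes to between -0.14 and 0.21. The standard errors of the 77 log2 fold changes ran from 0.12 to 0.31, wider than the spread of the genes among themselves, since each group holds 1 low and 1 high library.

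**Figure D1:**
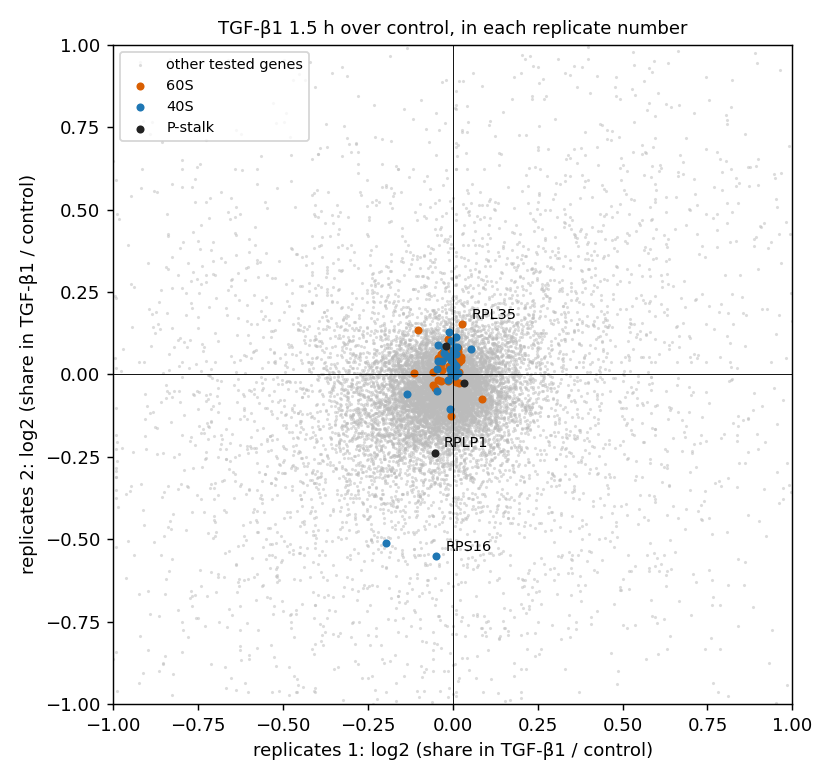
Each point is a gene, with the log2 ratio of its share of the library after TGF-β1 over control in replicates 1 (x axis) and in replicates 2 (y axis). Ribosomal protein genes (coloured by subunit) sit in a tight cloud around 0 with RPS16 and RPLP1 among those below it, and other tested genes (grey) spread further, some beyond the axes.

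Within replicates 1, 73 of the 77 genes had a log2 ratio of treated to control share between -0.1 and 0.1, and within replicates 2, 66 of 77. The ratio was above 0 in both pairs for 25 genes, below 0 in both for 14 and of opposite sign for 38. These counts were not made over all tested genes, so they alone do not show how the group differs from other genes. Within replicates 1 the lower and upper quartiles of the ratio were -0.03 and 0.01 for the 77 genes, beside -0.13 and 0.07 for all genes. Within replicates 2 they were 0.003 and 0.07 for the 77 genes, beside -0.15 and 0.04 for all genes. RPL35, a protein at the exit tunnel, had the highest fold change. Its CPM values were 657 and 786 in the controls and 670.5 and 873 after TGF-β1, with a log2 fold change of 0.13 (SE 0.20, adjusted p = 1.00 in edgeR). Both high values were in replicates 2, and the groups overlapped. RPS19, the gene most often mutated in Diamond-Blackfan anaemia, stood at 1026 and 1307 in the controls and 1033 and 1413 after TGF-β1 (log2 fold change 0.10). RPS14, a 40S protein whose loss is tied to the 5q- syndrome, gave 0.10 and RPS26 0.10, and in each of these genes the groups overlapped.

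Both treated libraries lay below both controls in 2 of the 77 genes (11.3% of all genes), among them RPS16, and above both controls in 0 of 77 (5.84% of all genes). RPS16, a 40S protein whose tail reaches the decoding region, was at 72.9 and 74.6 in the controls and at 70.5 and 51.0 after TGF-β1 (log2 fold change -0.25, SE 0.19). Its low value was that of TGF-β1 replicate 2, the library with the longer fragments, and the part of fragment length in it was not tested. Some unmatched transcripts could not be named, and whether RPS16 shares reads with any of them was not tested, so its low level (220.9 TPM) and its low value in that library are uncertain.

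In the P-stalk, RPLP0, which anchors the stalk and is a common reference gene, was at 2929 and 4047 CPM in the controls and at 2887 and 4299 after TGF-β1. The RPLP0 groups overlapped, and its log2 fold change was 0.08 (SE 0.30). RPLP1, a stalk protein that recruits elongation factors, was at 420 and 565 in the controls and 405 and 480 after TGF-β1 (log2 fold change -0.12, SE 0.20). Its partner RPLP2 was at 654, 818.5, 670 and 804 in the same order (0.03). Neither RPLP1 nor RPLP2 separated the groups. MYC, a transcription factor that raises ribosomal protein genes, was at 403 and 499.7 in the controls and at 121 and 239 after TGF-β1. The MYC groups did not overlap, but its log2 fold change of -1.29 did not pass either test (adjusted p = 1.00 in edgeR and 0.0853 in DESeq2).

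The second comparison sets the 2 libraries with the same number, 1 control and 1 treated, against the libraries with the other number. The spread within a number is thus that between a control and a treated library, not between duplicates of 1 group. If a number marks a shared batch, which the labels do not say, the p-values do not cover the spread between batches. Ribosomal protein mRNAs were higher in the libraries numbered 2 almost throughout. Their summed share was 1.30 times that of the libraries numbered 1, 1.28 times in the controls and 1.32 times after TGF-β1 (exact two-sided permutation test, p = 0.333, the smallest that 2 against 2 allows). In TPM, which corrects for transcript length, they took 20.9% and 25.2% in control replicates 1 and 2 and 20.9% and 26.3% after TGF-β1, a ratio of 1.23.

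By gene, 71 of 77 (92.2%) passed edgeR's test as higher and 0 as lower, beside 16.4% of all genes called higher and 21% called lower. DESeq2 called 71 of 77 higher, beside 13.4% of all genes. The shares of both libraries numbered 2 lay above both numbered 1 in 74 of the 77 genes (37.3% of all genes), and in 75 genes the log2 ratio was above 0 in each group. The edgeR log2 fold change was above 0 in 75 genes (50.8% of all genes), and an unadjusted p under 0.05 was reached by 72 (48.4% of all genes). The median log2 fold change was 0.33 (middle 50% 0.27 to 0.39), beside 0.01 (-0.25 to 0.29) for all tested genes and -0.06 (-0.27 to 0.13) for the 6626 genes with a mean of at least 1000 counts. Of the 71 genes, 53 were also called in each fit that left out 1 library and 23 in every alternative tried. With limma on log2(TPM + 1) the count fell to 25 of 77, with a median of 0.28.

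**Figure D2:**
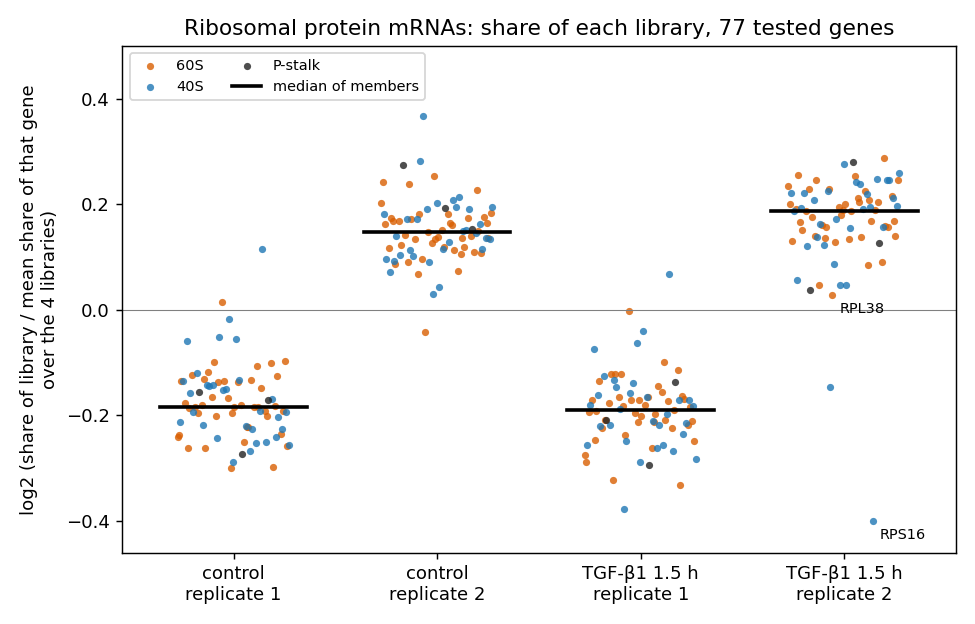
For each of the 77 tested genes, the log2 of its share of the library over that gene's mean share in the 4 libraries (y axis) is shown per library (x axis), coloured by subunit, with black bars at the median. The libraries numbered 1 of both groups sit below 0 for nearly all genes and the libraries numbered 2 above it, with RPS16 low in TGF-β1 replicate 2.

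The size of the difference varied between genes in a similar order in both groups. Across the 77 genes the log2 ratio of number 2 to number 1 in the controls and in the treated libraries had a Pearson r of 0.77 and a Spearman rho of 0.77, beside 0.54 and 0.74 across 14703 tested genes. The ratios come from separate libraries but share the genes' sequence and length, and genes are not independent replicates.

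**Figure D3:**
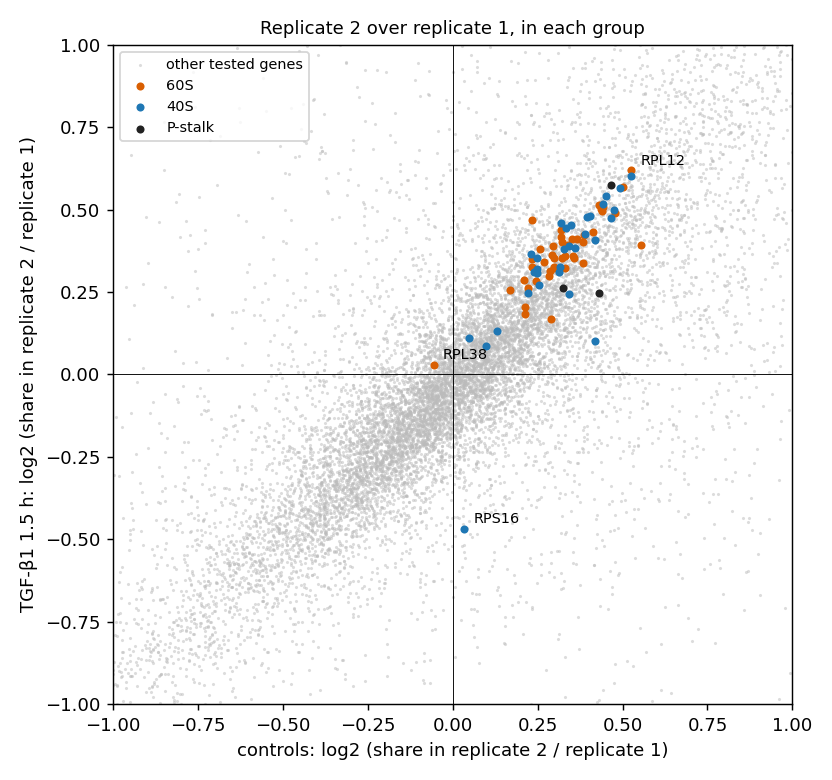
Each point is a gene, with the log2 ratio of its share in replicate 2 over replicate 1 among the controls (x axis) and among the TGF-β1 libraries (y axis). Ribosomal protein genes (coloured by subunit) lie in the upper right near 0.33 on both axes, RPL12 furthest out, RPL38 near 0 and RPS16 below 0 in the treated libraries, while other tested genes (grey) run along the whole diagonal, some beyond the axes.

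In the small subunit 26 of 31 tested genes were called higher, and the subunit's summed share was 2.76% and 2.75% of gene counts in the libraries numbered 1 (control, TGF-β1) and 3.48% and 3.59% in those numbered 2, a ratio of 1.29. RPS6, the substrate of the S6 kinases downstream of mTORC1, was at 1611 and 2265 CPM in control replicates 1 and 2, and at 1613 and 2386 in TGF-β1 replicates 1 and 2. Both libraries numbered 2 were high and the numbers did not overlap, with a log2 fold change of 0.51 (SE 0.05, adjusted p = 0.00313). RPS24, another 40S protein, was at 957, 1322, 955 and 1326 in the same order (log2 fold change 0.45, adjusted p = 0.00227). RPS3A gave 0.47 and RPS18, of the head of the subunit, 0.48.

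RPSA, also known as a laminin receptor, was at 1831, 2299, 1845 and 2400 CPM in control 1, control 2, TGF-β1 1 and TGF-β1 2 (log2 fold change 0.34, adjusted p = 0.00796). RPSA thus sat close to the median of the group. RPS12 gave 0.40, RPS19 0.38 and RPS14 0.37, each higher in both libraries numbered 2. Smaller differences were called for RPS4X (0.245) and for RPS27A (0.22), which is made as a fusion to ubiquitin. RPS27A was at 1088, 1270, 1083 and 1284 CPM in the order just given, and its adjusted p was 0.0169.

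In the large subunit 42 of 43 genes were called higher, and its summed share was 4.24% and 4.22% in the libraries numbered 1 and 5.41% and 5.55% in those numbered 2, a ratio of 1.30. RPL12, a protein at the base of the stalk encoded at chr9:127447674-127451405, had the highest fold change of the 77 genes. Its CPM values were 1306 and 1880 in control replicates 1 and 2 and 1276 and 1961 in TGF-β1 replicates 1 and 2. The numbers did not overlap, and the libraries numbered 2 were 1.47-fold higher (log2 fold change 0.56, SE 0.05, adjusted p = 0.00228). RPL41 was at 1398, 1979, 1342 and 1990 in the same order (1.43-fold, adjusted p = 0.00201). RPL39 was 1.38-fold, RPL10, which joins the 60S subunit late in its assembly, 1.37-fold, RPL3, of the catalytic centre, 1.37-fold and RPL13A 1.37-fold higher.

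RPL5 and RPL11 travel with 5S rRNA and can bind MDM2, the inhibitor of p53. RPL5 was at 1173, 1476, 1188 and 1485 CPM in control 1, control 2, TGF-β1 1 and TGF-β1 2 (log2 fold change 0.31, adjusted p = 0.00608). RPL11 was at 888, 1035, 893 and 1071 (0.22, adjusted p = 0.0222). Both genes were higher in both libraries numbered 2, RPL11 by less, and the difference between RPL5 and RPL11 was not tested. RPL22, an RNA-binding protein with a close paralog, gave 0.29, and RPL14 had the lowest value among the called genes, 0.18 (adjusted p = 0.0225).

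All 3 P-stalk genes were called higher, and their summed share had a ratio of 1.38. The values of RPLP0 given above were 1.42-fold higher in the libraries numbered 2 (adjusted p = 0.00354), those of RPLP1 1.25-fold (adjusted p = 0.0235) and those of RPLP2 1.21-fold (adjusted p = 0.00769). RPLP0 was thus not level across these 4 libraries, at 4029, 5375, 4042 and 5702 TPM.

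The test was not passed by 6 of the 77 genes. RPL38, a 60S protein needed for Hox mRNA translation in mice, was at 431.5, 415, 427 and 436 CPM in control 1, control 2, TGF-β1 1 and TGF-β1 2. The values of RPL38 in the libraries numbered 2 lay on both sides of those numbered 1, with a log2 fold change of -0.03 (SE 0.05, adjusted p = 0.693). RPS21 was at 428, 442, 414.5 and 448 in the same order (0.06, adjusted p = 0.327). RPS15, of the head of the 40S subunit, was at 402, 431, 407 and 432 (0.07, adjusted p = 0.223). RPS23, which sits at the decoding centre, was at 983, 1077, 973 and 1065 (0.11, adjusted p = 0.0797). In RPS21, RPS15 and RPS23 both libraries numbered 2 were above both numbered 1, by less than for most ribosomal protein genes. RPS23 passed edgeR's test in some alternatives. They were protein-coding transcripts only (0.18, adjusted p = 0.0351), at least 50 counts in 2 libraries (0.14, adjusted p = 0.0391) and scaling by total gene counts only (0.13, adjusted p = 0.0427).

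RPS16 gave a log2 fold change of -0.21 (adjusted p = 0.352), again from TGF-β1 replicate 2. Without control replicate 2, RPS16 was called lower in number 2 (-0.49, adjusted p = 0.0178), the only gene of the group so called in any fit that left out a library.

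The medians were alike with and without a TOP start in the window, a division set by the exact RefSeq start site. RPL10A and RPL4 counted as without, though a run of C and T began a few bases after that site. Whether a TOP start plays a part in the difference was thus not tested. The 46 tested genes with such a start had a median log2 fold change of 0.33 and 42 of them were called, the 16 genes without one in these windows had 0.33 with 15 called, and the 15 genes with no window had 0.34 with 14 called.

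Most reads of the group fell on transcripts annotated as protein coding, 85.5% to 86.0% of its counts in the 4 libraries. Retained-intron transcripts held 6.78% to 6.98%, nonsense-mediated decay (NMD) transcripts 4.23% to 4.78% and processed transcripts 2.72% to 2.97%. These shares moved by less than 1 percentage point between libraries. With protein-coding transcripts only, 69 of 77 genes were called higher in number 2, and the median was 0.35.

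A few genes differed from that pattern. RPL14 had 80.5% to 82.6% and RPL4, whose extension lines the exit tunnel, 65.6% to 69.3% of their counts on retained-intron transcripts. RPL37 had 61.4% to 65.6% on processed transcripts. RPS3, of the mRNA entry channel, had 74.5% and 79.0% on NMD transcripts in control replicates 1 and 2 and 76.6% and 82.6% in TGF-β1 replicates 1 and 2. The division among overlapping transcripts is kallisto's estimate. On protein-coding transcripts alone, the difference between the numbers was no longer called for RPS3 (log2 fold change 0.09, adjusted p = 0.455, from 0.42) or RPS9 (0.25, adjusted p = 0.232, from 0.54).

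For some genes a near-identical copy on an alternate locus, which the primary annotation lacks, took part of the estimated counts. The copies held 50.0% for RPL7A and RPS25, 80.0% for RPS18 and 85.5% to 87.5% for RPS9. With the copies added, the mean levels were 3832 TPM for RPL7A, 2090 TPM for RPS25, 5928 TPM for RPS18 and 438 TPM for RPS9. RPS18 then stood among the highest of the group and RPS9 stayed low. A copy of the RPL9 pseudogene RPL9P9 on such a locus held 34783, 38972, 34872 and 37459 estimated counts in control 1, control 2, TGF-β1 1 and TGF-β1 2. In the same order RPL9 itself held 11696, 12370, 10734 and 12079, so the level of RPL9 (696 TPM) is uncertain as well. RPS9 and RPS18 kept their calls with the copies added, at log2 fold changes of 0.49 and 0.48.

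Pseudogenes of the primary annotation, which leave out the RPL9P9 copy just given, took little from the group as a whole but much from some genes. The 1132 pseudogenes named after these genes held 1.07% to 1.13% of the sum of both. The highest count among them was that of RPL23AP42, named after RPL23A at the exit of the peptide tunnel, which held 17832, 17900, 16744 and 18972 estimated counts in control 1, control 2, TGF-β1 1 and TGF-β1 2. Across the 4 libraries, pseudogenes held 45.4% to 49.6% of the sum for RPL23A, 18.2% to 20.4% for RPS28 and 13.2% to 17.2% for RPL21. RPL23A and its pseudogenes cannot be told apart with certainty in short reads. With pseudogene counts added to their parent genes, 71 of 77 genes were again called higher in number 2.

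The gene lists below were written for this comparison with earlier results of these data known. In the comparison with TGF-β1, edgeR called 0 genes in every one of them. The list counts between the numbers stand beside 16.4% of all tested genes called higher and 21% called lower. Between the numbers, the mRNAs of elongation and initiation factors and others known as TOP mRNAs had the same direction as the ribosomal proteins, with 14 of 19 called higher, 0 lower and a median log2 fold change of 0.34. EEF1A1, which delivers aminoacyl-tRNA, was at 16420 and 26880 CPM in control replicates 1 and 2 and at 16358 and 27774 in TGF-β1 replicates 1 and 2 (log2 fold change 0.72, adjusted p = 0.00125). Both libraries numbered 2 were far above both numbered 1. EEF2, the translocase, gave 0.55 and TPT1 0.54, while VIM (-0.13, adjusted p = 0.274) and HNRNPA1 (0.10, adjusted p = 0.171) were not called.

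FAU, which encodes a ribosomal protein as a fusion under another name, was not called (0.10, adjusted p = 0.243). Of 7 tested paralogs of ribosomal proteins, RPL22L1 was called higher (0.30, adjusted p = 0.00631) and RPL26L1 lower (-0.22, adjusted p = 0.0161), with a median of 0.01. RPL22L1 was at 159, 197, 159 and 199.7 CPM in control 1, control 2, TGF-β1 1 and TGF-β1 2, in step with RPL22, while RPL26L1 was at 52.9, 46.4, 52.0 and 44.7.

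Factors that build ribosomes had no common direction. Of 41 ribosome biogenesis factors 5 were called higher and 10 lower, with a median of 0.00 (all tested genes 16.4% higher, 21% lower, median 0.01). NOB1, the nuclease that finishes 18S rRNA, was higher (0.75, adjusted p = 0.0019), and EIF6, which keeps new 60S subunits from joining, was lower (-0.60, adjusted p = 0.00477). Of 7 chaperones of ribosomal proteins 0 were called higher and 1 lower (HEATR3, -0.22). Of 17 genes of mTORC1, LARP1 and transcription factors of these genes 0 were higher and 4 lower, among them EIF4EBP1 (-0.34) and RHEB (-0.31), and LARP1 was level (0.00, adjusted p = 0.974).

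Other large complexes gave other medians. Mitochondrial ribosomal proteins had 10 of 77 called higher and 9 lower (median -0.01). Nuclear subunits of oxidative phosphorylation had 28 of 79 called higher and 3 lower (0.10), and mRNAs of the mitochondrial genome 7 of 13 higher and 0 lower (0.28). Proteasome subunits had 1 of 34 called higher and 19 lower (-0.21), with PSMD3 at -0.90 and PSMD2 at -0.69. Initiation factors outside the TOP list had 4 of 23 called higher and 8 lower (-0.07). No difference between lists, or between a list and all genes, was tested.

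**Figure D4:**
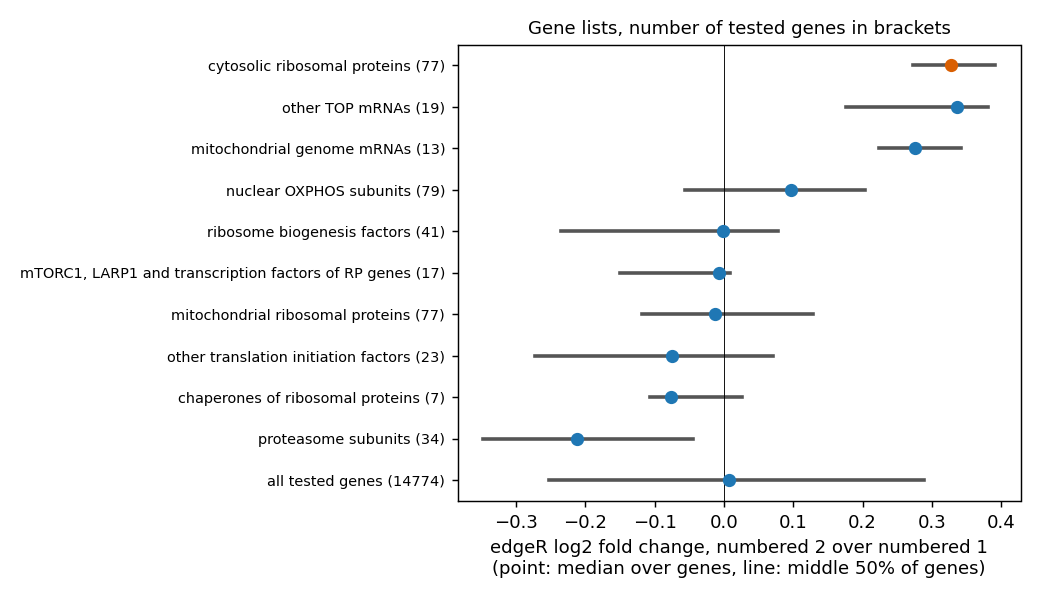
For each gene list (y axis, with its number of tested genes) the point is the median and the line the middle 50% of edgeR's log2 fold changes between libraries numbered 2 and numbered 1 (x axis). Cytosolic ribosomal proteins and other TOP mRNAs lie near 0.33, proteasome subunits below 0, and all 14774 tested genes are centred near 0 with a wider spread.

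Ribosomal protein mRNAs are short, so genes of like length were set beside them. Other genes with transcripts of 500 to 750 bases had a median log2 fold change of 0.11 between the numbers (592 genes), and the 42 ribosomal protein genes of that length had 0.32. Below 500 bases the medians were -0.02 (203 other genes) and 0.30 (13 ribosomal protein genes), and from 750 to 1000 bases 0.08 (849) and 0.34 (15). In each length class that held them, the median of the ribosomal protein genes lay above that of the other genes. The upper quartile of the other genes was 0.35 below 500 bases, 0.41 from 500 to 750 and 0.40 from 750 to 1000. Each of these exceeded the ribosomal protein median of its class. From 1000 to 1500 bases the upper quartile and the ribosomal protein median were both 0.34. Many other genes of like length thus had fold changes as large as the typical ribosomal protein gene, but most of the other genes were not called. Other genes called higher made up 9.85% below 500 bases, 14.9% from 500 to 750, 16.7% from 750 to 1000 and 17.3% from 1000 to 1500. Of the 77 ribosomal protein genes 92.2% were called higher. The classes were not matched for counts. Within the group of 77, the fold change had a Pearson r of 0.25 and a Spearman rho of 0.23 with transcript length.

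**Figure D5:**
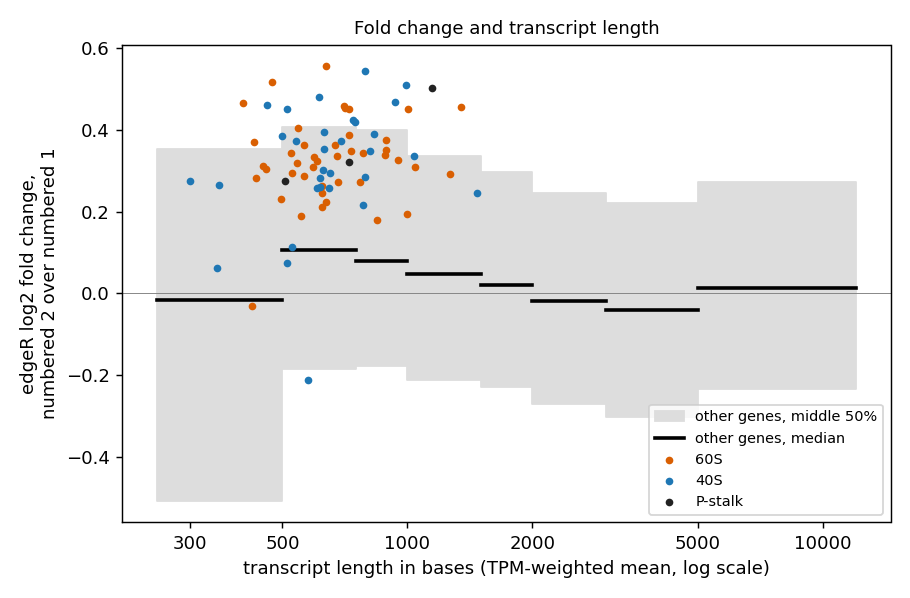
The edgeR log2 fold change between libraries numbered 2 and numbered 1 (y axis) is shown against transcript length in bases (x axis, log scale) for the 77 ribosomal protein genes, coloured by subunit. Black bars and grey bands give the median and middle 50% of other genes in each length class, and most ribosomal protein genes lie above the bars at any length.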

How the data were processed

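RNA of 4 MCF10A cultures was sequenced in pairs of short reads from stranded libraries depleted of rRNA, per the labels' protocols, although the labels' molecule field says polyA RNA. Per the submitters' processing notes, the authors used kallisto and GRCh38, with a kallisto version not given in the sources used here. Per the file headers, the deposited tables hold estimated counts, TPM values and transcript lengths in bases.

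Of 173259 transcripts 159239 (91.9%) matched GENCODE release 29 by identifier without version. Estimated counts and TPM were summed per gene, and counts were rounded to whole numbers. Groups, and libraries by replicate number, were compared with edgeR 4.0.16 (R 4.3.3, quasi-likelihood test, TMM scaling, filterByExpr) with Benjamini-Hochberg adjustment over 14774 genes, threshold 0.05. The test was tried on simulated counts. Shares have 95% Wilson intervals, which cover counting error only. Alternatives were DESeq2 1.42.0, limma 3.58.1 on log2(TPM + 1), other scalings and filters, a replicate block, treatment as a term, each library left out, protein-coding transcripts only and added pseudogenes. Adding alternate-locus copies was chosen after seeing the data. A standard error is the log2 fold change over the root of edgeR's F.

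Ribosomal protein genes and gene lists were chosen with earlier results of these data known. The named genes were 20 set by role, the 5 highest and lowest by TPM and by fold change, the called genes with the smallest p, those with most counts outside protein-coding transcripts, and up to 3 genes of each list by p. Others are named because they carry a count. Of 13 snoRNA host genes, none matched. The results of some named genes are not reported here.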

Additional observations from a re-analysis of the deposited data

How the results depend on the processing

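With TGF-β1, the count of 0 ribosomal protein genes held in every alternative, but the count over all genes, 0 in edgeR, was 90 with DESeq2, 15 without a filter and 8 to 25 with 1 library left out. With the replicate number as a block, edgeR called 335 genes (2.27%) and again 0 ribosomal protein genes, with a median log2 fold change of 0.05. Deviations of same-numbered libraries from their group means correlated at 0.76, but with 2 pairs and no label on what a number marks, the pairing is not established. The median of the group, 0.05, ran from -0.14 to 0.21 with 1 library left out, and the ratio of treated to control share, 1.01, from 0.875 to 1.15, because this leaves an arm with 1 low or 1 high library, assumed to vary like the others.

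Between the numbers, 71 genes called higher became 25 with limma on log2(TPM + 1) and 55 to 67 with 1 library left out, and 0 called lower became 0 to 1. All genes called, 5524, became 2886 with limma and 3011 to 4041 with 1 library left out. The median log2 fold change, 0.33, was 0.36 with at least 50 counts in 2 libraries, 0.28 with limma and 0.28 to 0.36 with 1 library left out. The share ratio, 1.30, was 1.23 in TPM. For limma and the filter the cause was not tested. Among the named genes' values, 21 of 164 with 1 library left out and 20 of 451 in the other alternatives lost their call, and none reversed. In the other alternatives 5 of 451 gained a call. RPS4Y1, at 1 to 9 estimated counts, was too low to test, and 2 libraries per group limit every test.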
